A study of Caenorhabditis elegans and Caenorhabditis briggsae with 26 samples.

Results

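The embryos of the nematode Caenorhabditis briggsae were sampled in 2 separate cultures, A and B, and the transcripts that separated them are described here. Members were the libraries labelled as mixed embryos of that species: A1 and A2, both made from culture A, and the 1 library of culture B, which makes 3 of the 26 libraries of the series. All were the wild-type strain AF16, with no treatment, mutation or transgene, and their label gives a temperature of 20 °C. Embryos of unselected ages were released from gravid adults with bleach, and poly(A)+ RNA was sequenced. Culture A came from a first time course and culture B from its repeat. Material was cleaned either by washing in M9 buffer or on a sucrose gradient, and the labels do not say which was used for which culture. With 1 culture on each side there is no replicate check of a difference between A and B, and no p-value is given. The spread between A1 and A2 is that of libraries of the same culture and may be technical. In bulk RNA of whole embryos, fewer cells of a type and less RNA per cell cannot be told apart.

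A nematode embryo begins with transcripts loaded by the mother, switches on its own genome in the first divisions, assigns tissue fates through transcription factors while cells still divide, and then elongates into a worm. Muscle contraction is needed for that elongation, and an apical matrix that holds the epidermis in shape is later replaced by the collagen cuticle of the first larva. Structural genes of muscle, pharynx, gut and cuticle are therefore known from C. elegans as genes of later embryogenesis, and the factors that specify those tissues as genes of earlier stages. Gene names and roles below are those of the C. elegans ortholog under which each C. briggsae value stands.

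The deposited unit is RPKM, a read number divided by the length of the gene model and by the total of mapped reads, and the authors computed it. Of 21774 gene IDs, 13938 had C. briggsae values, and 125 of these had C. briggsae values identical to another ID and were left out. Among the remaining 13813, the 9484 with a mean of at least 1 RPKM over the cultures were compared on a log2(RPKM + 1) scale, which understates the change of low genes. Summed RPKM was 516091 in A1, 522416 in A2 and 535413 in B. At least 1 RPKM was reached by 9564 IDs in A1, 10490 in A2 and 8586 in B. Read depth is unknown, since the files give no counts. No value was 0, and low values fell on steps: among genes under 0.3 RPKM in both libraries the most frequent ratio of A2 to B was 1.95 and that of A1 to B was 0.846, so the lowest level a gene could take was highest in A2. The library labels could be checked against maternal and adult genes. The maternal RNA-binding factor pos-1 stood at 275 RPKM in A1, 305 in A2 and 284 in B, against 2.1 in C. briggsae L1 larvae of culture A. The yolk protein gene vit-2 stood at 0.0690, 0.113 and 0.0371 RPKM in the same order, against 4885 in C. briggsae young adults.

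A gene was counted as higher in a culture when it was at least 2-fold apart, on the log2(RPKM + 1) scale, in both A1 against B and A2 against B. By this rule 724 genes were higher in culture A, which is 7.63% of those compared, and 120 were higher in culture B, which is 1.27%. Culture A thus held 85.8% of the counted genes. After quantile normalization of the 3 libraries the counts were 483 and 195, or 71.2% in A. Between A1 and A2, 467 genes (4.92%) were at least 2-fold apart, 191 of them higher in A1 (2.01%) and 276 higher in A2 (2.91%). At 4-fold the counts were 241 genes higher in A (2.54%) and 2 higher in B (0.0211%). At 8-fold they were 81 (0.854%) and 0. The median difference between the cultures over all genes compared was 0.02 on the log2 scale, -0.07 for A1 and 0.05 for A2. On the side of culture A, 19 genes lay within 0.02 log2 inside the 2-fold limit and 12 within 0.02 log2 outside it. The same rule applied to the other culture pairs of the series gave smaller shares: C. briggsae L1 larvae had 182 genes higher in A (1.6%) and 65 higher in B (0.571%), and C. elegans embryos had 26 (0.25%) and 58 (0.557%). The C. elegans library A1 stands apart from A2 in composition, with ribosomal protein medians against B of 0.86 and -0.12. Since the rule asks for both libraries, this can lower the C. elegans counts.

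**Figure D1:**
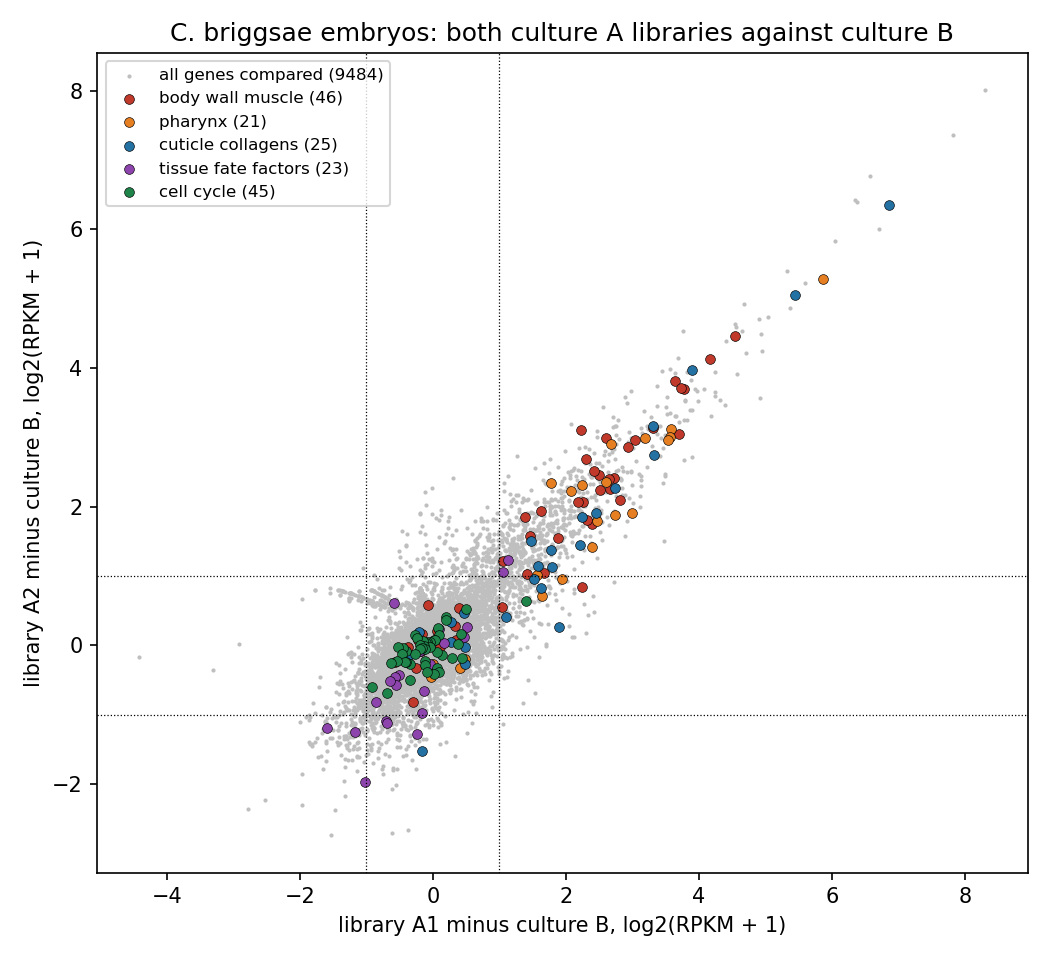
Difference of library A1 from culture B (horizontal axis) against that of library A2 from culture B (vertical axis), both on log2(RPKM + 1), for the 9484 genes compared; coloured points are members of 5 gene lists and dotted lines mark 2-fold. Both libraries of culture A put the muscle, pharynx and collagen genes on the same side, with a long arm of 724 genes higher in A and a short one of 120 higher in B.

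The 2 sides differed in level. Genes higher in A had a median of 5.04 RPKM in culture A and 0.385 RPKM in B, and 553 of the 724 were under 1 RPKM in B. Most were therefore near the floor in B and low but present in A. In C. elegans embryos of culture B, 612 of the 724 (84.5%) reached at least 10 RPKM, against 79 of the 120 genes higher in B (65.8%) and 6850 of all 9484 compared (72.2%). Genes higher in B had a median of 7.38 RPKM in A and 20.9 RPKM in B, and 10 of the 120 were under 1 RPKM in A. Most were thus lower in A without being near the floor there.

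Cuticlin and collagen genes, taken by their cut and col symbols, made up 6 of the 12 genes with the largest differences towards culture A. The cuticlin gene cut-2 stood at 374 RPKM in A1, 305 in A2 and 0.191 in B, a log2 difference of 8.15. Its relative cut-3 stood at 100.0, 102 and 0.225 RPKM, a log2 difference of 6.38. Cuticlins are proteins of the insoluble part of the cuticle, and both genes were abundant in culture A and at the floor in B. The collagen gene col-165 stood at 134, 93.4 and 0.164 RPKM (6.60 on the log2 scale) and col-74 at 116, 71.5 and 0.130 (6.35). The collagens col-65 (58.6, 45.1 and 0.235 RPKM; 5.41) and col-10 (53.7, 40.9 and 0.265 RPKM; 5.24) followed. In each of these collagens A1 was above A2, by less than the distance of either from B.

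Genes with other symbols also stood among the 12 with the largest differences. far-1, which encodes a secreted fatty acid and retinol binding protein, had 191 RPKM in A1, 203 in A2 and 1.37 in B, a log2 difference of 6.38. abu-14, one of a family of cuticle-lining proteins of the pharynx in C. elegans, had 74.3, 49.3 and 0.290 RPKM (5.58). glf-1, for UDP-galactopyranose mutase, a sugar enzyme needed for the worm surface, had 33.5, 29.2 and 0.152 RPKM (4.81). A further surface gene, bus-5, had 32.6, 33.2 and 0.422 RPKM (4.57), and the aspartyl protease gene asp-17 had 23.1, 24.4 and 0.0301 RPKM (4.59). ram-2 completed the group with 51.7, 36.4 and 0.278 RPKM (5.12). All but far-1 were under 1 RPKM in B. Of the 40 genes with the largest differences 12 had no gene symbol.

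The largest differences towards culture B were smaller and of mixed kinds. fog-1, an RNA-binding protein that sets sperm fate in the C. elegans germline, stood at 3.08 RPKM in A1, 4.50 in A2 and 27.2 in B, a log2 difference of -2.57. fog-3, which acts in the same decision, stood outside the rule for named genes and was looked up after fog-1 was seen: 0.286, 0.708 and 3.30 RPKM (-1.54). The bZIP transcription factor gene zip-7 had 5.92, 7.45 and 38.9 RPKM (-2.38), and the insulin-like gene ins-2 had 3.28, 2.40 and 15.8 (-2.14). Apart from fog-3, which was under 1 RPKM in A, these genes were present in both cultures and several-fold more abundant in B. bgnt-1.6, named for a glycosyltransferase family, had 10.9, 11.8 and 45.3 RPKM (-1.91). The cyclophilin gene cyn-6 had 38.2, 40.5 and 125 RPKM (-1.64), and ufm-1, a ubiquitin-like modifier, had 19.3, 27 and 72.7 (-1.63). The Skp1-related gene skr-21 had 11.3, 15 and 42.6 RPKM (-1.64). The other members of this group were ham-2 (-1.58), the stomatin gene sto-1 (-1.56), the lipid-binding gene lbp-2 (-1.49), zip-11 (-1.48) and the T-box gene tbx-7 (-1.44). Among these the level in B ran from 13.9 RPKM for zip-11 to 70.4 RPKM for lbp-2.

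**Figure D2:**
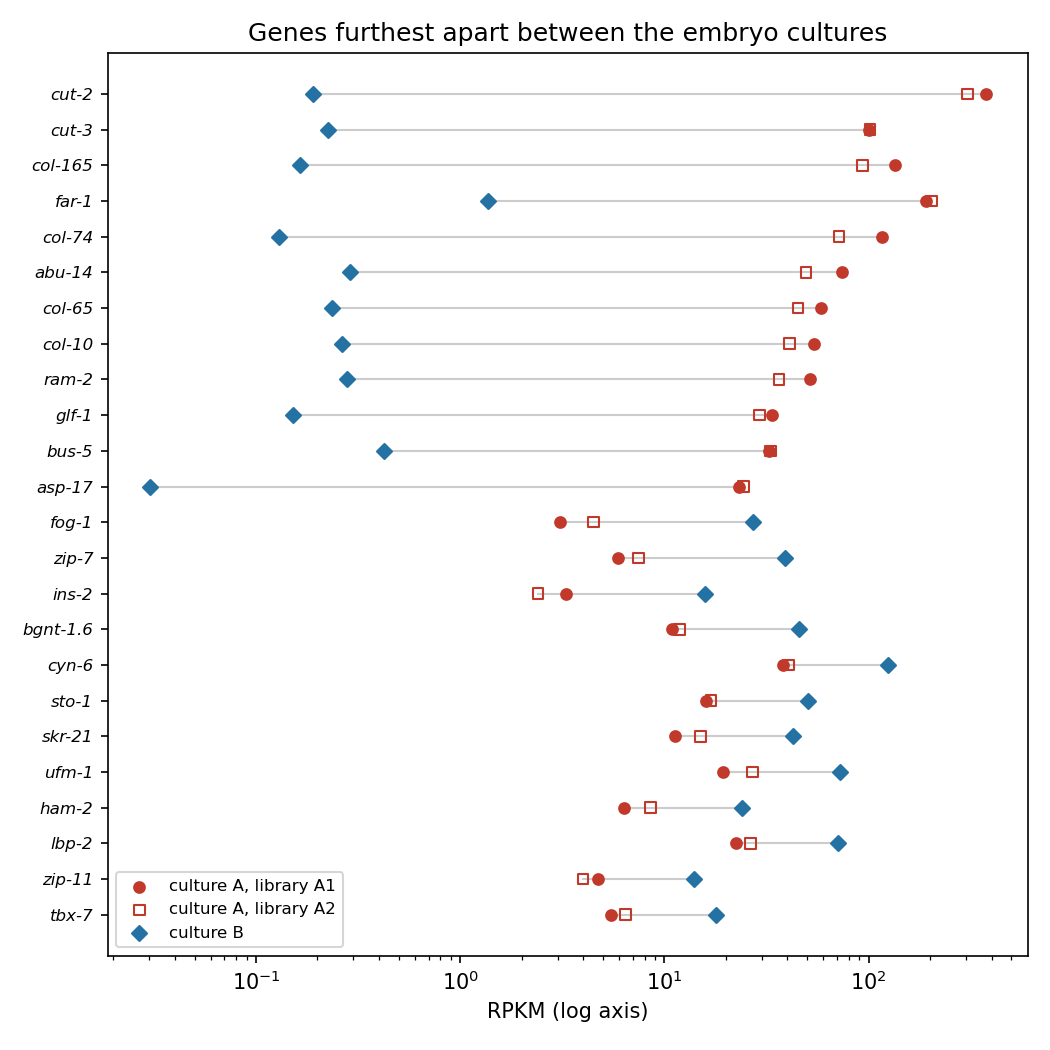
RPKM on a log axis in libraries A1 (filled circles), A2 (open squares) and culture B (diamonds) for the 12 genes with the largest consistent difference in each direction. The upper 12 genes lie at or under 1.37 RPKM in B and at 23.1 RPKM or above in culture A, and the lower 12 lie at 13.9 RPKM or above in B and at 2.40 RPKM or above in A.

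By absolute amount, abundant transcripts took the lead. The collagen gene sqt-3 had 566 RPKM in A1, 387 in A2 and 103 in B, a log2 difference of 2.18. On the other side the linker histone gene hil-2 had 596, 596 and 1479 RPKM (-1.31), with no visible spread between A1 and A2. The transthyretin-related gene ttr-50 had 500, 678 and 1392 RPKM (-1.26), and after quantile normalization its difference from A2 shrank to -0.91, so that it was no longer counted. The caveolin gene cav-1, whose protein is inherited from the oocyte in C. elegans, had 1839, 1500 and 3068 RPKM (-0.89). The Skp1-related gene skr-7 had 712, 770 and 1330 RPKM (-0.84), and the chromatin protein gene hmg-1.1 had 1874, 1651 and 2476 (-0.49). None of these last 3 met the 2-fold rule. mex-5, a maternal polarity factor, showed the largest excess in A, with 2103, 1418 and 1105 RPKM (0.64), but A1 and A2 differed by more than A2 and B. H06A10.1 was lowest in A1 with 202 RPKM against 1544 in A2 and 1523 in B, so its mean difference rested on library A1. The remaining genes with large excess in A were clec-87 (0.25) and clec-88 (0.24), and tbb-2 and tbb-6 (0.22 and 0.21), whose near-equal values cannot be assigned to either copy.

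**Figure D3:**
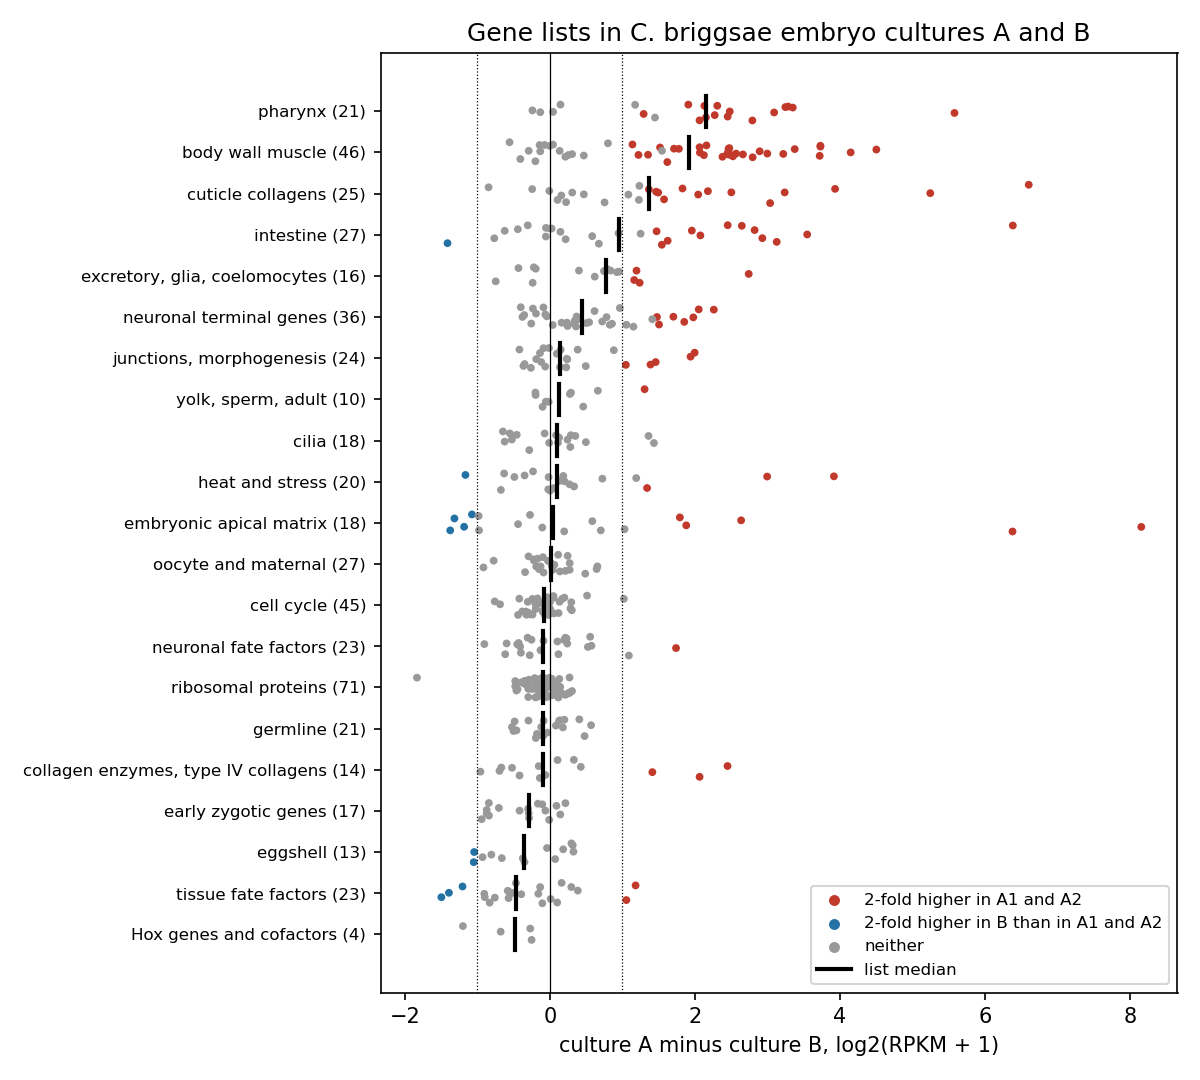
Culture A minus culture B on log2(RPKM + 1) for the members of 21 gene lists (number compared in brackets), each point 1 gene; red points are at least 2-fold higher in both libraries of A, blue points at least 2-fold higher in B, and black bars are list medians. The pharynx, body wall muscle, cuticle collagen and intestine lists lie to the right with medians of 2.15, 1.92, 1.36 and 0.95, while maternal, cell cycle, germline and ribosomal lists have medians between -0.09 and 0.01 and no counted member.

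The gene lists were chosen with earlier results of these data known, so their counts beside those of all genes are descriptions and not independent tests. Body wall muscle was the list with most counted members. Of 50 genes listed, 49 had values and 46 were compared: 30 were higher in culture A, none in B, and 16 in neither, against 7.63% and 1.27% of all genes. The list median was 1.92 on the log2 scale, 2.2 for A1 and 1.83 for A2, and 1.71 without the filter on low values. Of the 46 compared, 13 were under 1 RPKM in B and so entered through their level in culture A. The calponin-related gene clik-1 had 49.7 RPKM in A1, 47.4 in A2 and 1.19 in B, a log2 difference of 4.50. Tropomyosin, lev-11, the protein that lies along the thin filament, had 41.5, 40.2 and 1.36 RPKM (4.15). Troponin T, mup-2, which couples calcium to contraction, had 26, 24.6 and 0.983 RPKM (3.73). In all 3 the libraries of culture A lay close together and far above B. The troponin I genes unc-27 (3.22), tni-1 (3.37) and tni-3 (2.46) lay on the same side. The thick filament followed, with the myosin heavy chains myo-3 at 14.7, 11.7 and 1.39 RPKM (2.57) and unc-54 at 15, 13.7 and 2.53 (2.12). Paramyosin, unc-15, the core of that filament, had 12, 9.87 and 1.29 RPKM (2.38). The myosin light chains mlc-1 and mlc-2 (3.72 and 3.73) are near-identical genes in C. elegans and may share reads, and mlc-3 stood at 2.50.

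Genes of the muscle attachment and its matrix split. The basement membrane proteoglycan perlecan, unc-52, had 11.8 RPKM in A1, 11.1 in A2 and 0.555 in B (3.00), and the vinculin gene deb-1 had 21.5, 22.9 and 3.20 (2.46). The type IV collagens of the basement membrane, emb-9 at 27.7, 16 and 3.10 RPKM (2.45) and let-2 at 32.9, 22.7 and 5.78 (2.06), were also counted. The integrin alpha chain pat-2 had 12.0, 7.39 and 3.09 RPKM (1.35) and was no longer counted after quantile normalization. The integrin beta chain pat-3, in contrast, had 50.3, 38.2 and 48.5 RPKM (-0.14), so that A1 and A2 lay on both sides of B. The integrin-linked proteins pat-4 (0.13), pat-6 (-0.13), unc-112 (-0.41) and unc-97 (-0.20) were within 2-fold. The myosin chaperone unc-45 (0.47), the actin-binding gene unc-60 (-0.29) and the actin gene act-4 (-0.00) were within it too. Not every sarcomere gene passed 2-fold: unc-22, the giant kinase twitchin, had 8.97, 7.23 and 6.81 RPKM (0.21).

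The transcription factors that specify muscle lay on the other side. unc-120, a serum response factor relative that acts in muscle fate in C. elegans, had 25 RPKM in A1, 33.3 in A2 and 77.7 in B, a log2 difference of -1.39, and was counted as higher in B. hlh-1, the MyoD relative, had 42.7, 42 and 62.9 RPKM (-0.56). hnd-1, a further muscle factor, had 24.6, 26.4 and 42.2 RPKM (-0.70). Both libraries of culture A lay below B in all 3 factors. Only unc-120 passed 2-fold.

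The pharynx is the muscular feeding organ, with its own myosins, glands and lining. Of 37 genes listed 21 were compared, and 15 were higher in A and none in B, with a median of 2.15 (2.39 for A1 and 1.90 for A2). Of the 21, 15 were under 1 RPKM in B and entered the comparison through their level in culture A, so this count and median describe the genes present there. Without the filter the median was 1.23, and with a pseudocount of 5 it was 0.95, both below the muscle medians of 1.71 and 1.29 under the same settings. These genes were low: the 15 counted had a median of 5.96 RPKM in A and 0.290 in B. With a pseudocount of 5 the count was 6, and with a filter of at least 5 RPKM it was 5. Among the contractile genes, the myosin myo-2 had 5.02 RPKM in A1, 5.33 in A2 and 0.279 in B (2.27), and myo-1 had 3.42, 3.88 and 0.0471 (2.15). Troponin I, tni-4, had 13.4, 9.46 and 0.208 RPKM (3.35). Troponin C, tnc-2 (2.06), and troponin T, tnt-4 (2.45), joined them. For the gland, phat-1 had 14.8, 9.54 and 0.359 RPKM (3.25), with phat-5 at 2.79 and phat-2 at 2.31. For the lining, pqn-13 had 28.8, 19.4 and 1.53 RPKM (3.28), beside abu-14 above. The abu genes are alike in sequence, and reads may be shared among them. The median difference of A1 from A2 in this list was 0.55, so A1 held more of these transcripts than A2 did. The laminin beta gene lam-1 (-0.24) and the membrane protein gene eat-20 (-0.13) were within 2-fold. Among the factors of the pharynx, the forkhead gene pha-4, which marks the organ's precursors from the start, had 57.5, 62.6 and 90.3 RPKM (-0.58), and ceh-34 had 6.59, 6.19 and 16 (-1.21, higher in B). The later muscle factor ceh-22 had 3.59, 3.95 and 1.10 RPKM (1.18, higher in A), and peb-1 stood at 1.05. After quantile normalization neither ceh-22 nor peb-1 was still counted.

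The cuticle collagens divided within the list. Of 40 listed, 25 were compared, and 13 were higher in A and none in B, with a median of 1.36 (1.62 for A1 and 1.14 for A2). Of the 25 compared, 8 were under 1 RPKM in B and so entered through their level in culture A. Without the filter the median was 0.39, since the list holds many collagens of later stages that were near the floor in all 3 libraries. The collagens that form the annular furrows in C. elegans moved together. dpy-2 had 32.3 RPKM in A1, 24.4 in A2 and 6.05 in B (2.04), dpy-3 had 27.8, 16 and 5.26 (1.83), dpy-7 had 31.2, 22.8 and 9.76 (1.36) and dpy-10 had 45.1, 34 and 12.5 (1.57). All 4 lay above B in both libraries, and highest in A1. The abundant embryonic collagens dpy-17 (533, 307 and 172 RPKM; 1.23) and dpy-14 (226, 152 and 78.3 RPKM; 1.23) missed the rule because A2 was less than 2-fold above B. The collagens bli-2 (0.16) and sqt-2 (0.47) were within 2-fold, and rol-8 (-0.85) was lower in A2 alone. Over the list the median of A1 minus A2 was 0.46. The list of collagen-processing genes also holds the type IV collagens emb-9 and let-2. Of its 14 genes compared, 3 were higher in A, and bli-3 (1.41), an oxidase that cross-links collagen, was the enzyme among them. After quantile normalization bli-3 was no longer counted, with a difference of 0.57 for A2. The list median was -0.10, and it changed sign to 0.09 after quantile normalization and to 0.12 with A2 alone. The prolyl hydroxylase subunits pdi-2 (500, 664 and 1121 RPKM; -0.96) and dpy-18 (-0.67), and the lysyl hydroxylase let-268 (-0.70), were lower in both libraries of A without passing 2-fold in both.

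The list of the embryonic apical matrix, the temporary layer that precedes the cuticle, also holds cuticlins. Counted genes stood on both sides in near-equal number, with the cuticlins cut-2, cut-3 and cut-6 among those higher in A. The counts are therefore not those of the temporary layer alone. Of 26 listed, 18 were compared: 5 were higher in A, 4 in B, and the median was 0.05. Higher in B were sym-1, a leucine-rich repeat protein, with 45.8 RPKM in A1, 37.7 in A2 and 105 in B (-1.32), and the related let-4, with 5.76, 5.80 and 14.4 (-1.18). The fibrillin relative fbn-1, which holds the epidermis during elongation in C. elegans, had 7.27, 7.47 and 16.6 RPKM (-1.08), and cutl-2 had 9.48, 6.56 and 22.1 (-1.37). These genes were present in both cultures and lower in A. The zona pellucida proteins let-653 (-0.98), dex-1 (-0.98), noah-1 (-0.44) and noah-2 (-0.27) lay on the same side within 2-fold in at least one library. Higher in A were lpr-3, a lipocalin, with 37.1, 31.3 and 4.65 RPKM (2.64), the patched-related ptr-4 with 13.4, 9.15 and 2.29 (1.88), and cut-6 (1.79), besides cut-2 and cut-3. Of 24 cell junction and morphogenesis genes compared, 5 were higher in A and none in B, with a median of 0.14. The 5 were mup-4 (1.99) and let-805 (1.39), receptors that tie the epidermis to cuticle or muscle, the intermediate filaments ifb-1 (1.94) and ifa-3 (1.05), and rga-2 (1.46), a regulator of epidermal contraction. After quantile normalization let-805, ifa-3 and rga-2 were no longer counted, and 2 genes were counted with a filter of at least 5 RPKM and 1 with a pseudocount of 5. The cadherin hmr-1 (0.49), its catenins hmp-1 (-0.06) and hmp-2 (-0.09), and the junction proteins dlg-1 (-0.42) and let-413 (-0.14) were within 2-fold.

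Of 40 genes of the differentiated intestine listed, 27 were compared: 12 were higher in A and 1 in B, with a median of 0.95 (1.5 for A1 and 0.74 for A2), or 0.63 without the filter. The 12 had a median of 8.18 RPKM in A and 0.493 in B, and they included the abundant far-1 above. Of the 27, 9 were under 1 RPKM in B. The count in A was 7 with a pseudocount of 5 and 5 with a filter of at least 5 RPKM. The gut intermediate filament ifb-2, which forms the sheath under the lumen, had 14.2 RPKM in A1, 19.8 in A2 and 1.33 in B (2.93). The microvillar actin act-5 had 28.0, 28.8 and 3.70 RPKM (2.65), and the peptide transporter pept-1 had 6.35, 7.17 and 0.0967 (2.82). The aspartyl proteases asp-3 (18.7, 19.7 and 0.726 RPKM; 3.55) and asp-2 (3.13) lay with them. The aspartyl protease asp-4 went the other way, with 33.6, 44.4 and 105 RPKM (-1.41, higher in B). The gut-specifying GATA factors elt-2, at 4.45, 3.19 and 7.91 RPKM (-0.90), and elt-7 (-0.40) were lower in both libraries of A but were not counted. erm-1, an apical membrane linker that is present from the early gut, was level at 140, 143 and 128 RPKM (0.14).

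Of 52 listed genes of mature neurons 36 were compared, and 7 were higher in A and none in B, with a median of 0.44. All 7 were under 1 RPKM in B and between 2.30 and 6.66 RPKM in A, so that none was counted with a pseudocount of 5 or a filter of at least 5 RPKM. The largest was ida-1, a protein of dense-core vesicles, with 5.65 RPKM in A1, 7.68 in A2 and 0.587 in B (2.26). The neuropeptide-processing chaperone sbt-1 (2.05), the touch-neuron tubulins mec-12 (1.98) and mec-7 (1.85), rab-3 (1.70), synaptotagmin snt-1 (1.5) and the neuropeptide gene flp-1 (1.48) made up the rest. After quantile normalization rab-3 and flp-1 were no longer counted. Other members of the list, such as unc-33 (-0.23), unc-119 (-0.09), unc-76 (0.24) and unc-18 (-0.38), were within 2-fold. Of 18 ciliary genes compared none was counted, and the list median was 0.10, or -0.40 after quantile normalization. Of 23 neuronal fate factors 1 was counted, the LIM homeobox gene lim-4 (1.79, 3.73 and 0.0895 RPKM; 1.74). zag-1 (1.09) was just under the limit in A1. Among excretory, glial and coelomocyte genes 4 of 16 were higher in A, led by vha-5, a proton pump subunit of the excretory canal, with 5.52, 5.94 and 0.00724 RPKM (2.74). The others were ptr-10 (1.24), sto-4 (1.19) and nhr-31 (1.16), none of which was still counted after quantile normalization. The count was also 1 with a pseudocount of 5 and with a filter of at least 5 RPKM.

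Factors of tissue fate lay lower in A as a list, with few past 2-fold. Of 23 compared, 2 were higher in A and 3 in B, and the median was -0.47. Both A1 and A2 lay below B in 16 of the 23 and above it in 6, against 3282 below (34.6%) and 3205 above (33.8%) of all 9484 genes. The third gene counted in B, besides unc-120 and ceh-34, was ceh-16, the engrailed relative of the lateral epidermis, with 5.45, 2.36 and 12 RPKM (-1.5). After median-ratio scaling ceh-16 was no longer counted, with a difference of -0.95 for A1. The epidermal factors elt-1 (189, 162 and 196 RPKM; -0.16) and lin-26 (-0.13) were level. The Hox-type gene ceh-13 had 54.6, 50.8 and 84.9 RPKM (-0.68). lin-39 (2.07, 0.343 and 3.66 RPKM; -1.20) was low in all libraries and far from B only in A2. All 4 genes of that list compared were below B in both libraries of A, and none was counted.

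None of the 17 early zygotic genes compared was counted, and the list median was -0.29, or -0.45 after quantile normalization. Both A1 and A2 lay below B in 10 of the 17 and above it in 3, beside 34.6% and 33.8% of all genes. The endoderm gene end-1 had 29.7 RPKM in A1, 28.1 in A2 and 30.2 in B (-0.06), and the T-box gene tbx-37 had 56.3, 54.6 and 50.1 (0.14). The genes of the list that lay furthest towards B were the posterior Hox gene nob-1 (9.02, 6.01 and 15.1 RPKM; -0.94), pes-1 (-0.87), sdz-23 (-0.87) and dmd-4 (-0.84). pes-1, sdz-23 and dmd-4 would be counted in B after quantile normalization.

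Among maternal, germline and dividing-cell transcripts few were counted. None of the 27 oocyte and maternal genes was counted in either direction, with a median of 0.01. Besides pos-1, the RNA-binding genes gld-1 (348, 305 and 275 RPKM; 0.24), spn-4 (525, 655 and 623 RPKM; -0.09) and mex-3 (396, 440 and 457 RPKM; -0.13) were close. The members furthest apart lay on both sides. The polarity kinase par-1 had 69.7, 61.2 and 41.1 RPKM (0.65), near mex-5 above. The oocyte maturation factor oma-1 had 146, 153 and 257 RPKM (-0.78), and the yolk receptor rme-2 had 26.4, 29.8 and 53.9 (-0.92). Of 13 eggshell genes compared, 2 were higher in B, the chondroitin proteoglycan cpg-2 (121.1, 116 and 245 RPKM; -1.04) and perm-1 (16.3, 15.5 and 34 RPKM; -1.05), and neither was still counted after quantile normalization or median-ratio scaling. egg-5 was counted instead after quantile normalization. cpg-3 (-0.93) lay near them, while cpg-1, the most abundant, had 1526, 1112 and 1041 RPKM (0.32). None of 21 germline genes, 45 cell cycle genes and 71 ribosomal protein genes was counted, with medians of -0.09, -0.08 and -0.09. The B-type cyclin cyb-3 had 5246 RPKM in A1, 5405 in A2 and 5150.1 in B (0.05). rps-3 was the lowest of the ribosomal genes at 0.276, 8.80 and 11.6 RPKM, and here A1 stood apart from A2.

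Few yolk, sperm and adult genes were above the filter in these libraries. Of 31 yolk, sperm and adult genes listed, 20 had values and 10 were compared, and the summed level over those with values was 118 RPKM in A1, 110 in A2 and 107 in B. The major sperm protein gene msp-40 had 1.96, 1.76 and 1.97 RPKM. 1 gene, spe-27, was counted as higher in A (4.16, 4.01 and 1.06 RPKM; 1.30), but not after quantile normalization. Several oocyte and eggshell genes abundant in C. briggsae young adults lay towards B: rme-2, cpg-2, cpg-3 and perm-1, above, had 317, 946, 736 and 79.02 RPKM in that adult library. Their differences from B ran from -0.92 to -1.05. Other members of those lists lay towards A, such as mex-5 (622 RPKM in that adult library; 0.64). Both A1 and A2 lay below B in 7 of the 27 oocyte and maternal genes compared and above it in 10. For the 13 eggshell genes the numbers were 7 below and 3 above. The part of carried-over adult tissue in either culture was not tested. Of the heat and stress genes 3 of 20 were higher in A, all small heat shock proteins: hsp-12.2 (16, 22.7 and 0.348 RPKM; 3.91), hsp-25 (2.99) and hsp-12.3 (1.34). Of these, hsp-12.3 was no longer counted after quantile normalization. The glycerol phosphate dehydrogenase gpdh-1, which C. elegans induces in hypertonic medium, was higher in B (23.1, 24.9 and 55 RPKM; -1.16). The heat-inducible hsp-16.41 (75, 116 and 85.1 RPKM; 0.13) and hsp-70 (0.72) were within 2-fold.

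Levels in hatched animals give a scale for these differences. C. briggsae L1 larvae were collected 6 h after food was added, and culture A was measured in 2 L1 libraries. All 30 muscle genes higher in embryo culture A were higher still in L1 larvae: their medians were 1.49 RPKM in embryo culture B, 19.9 in embryo culture A and 194 in L1 larvae of culture A. The level in embryo culture A was 8.82% of the L1 level at the median and ran from 3.04% to 33%, while in culture B it was 0.777%. For the 12 intestine genes it was 2.75% and ran from 0.261%, for the protease gene cpr-4, to 17.1%. For the 7 neuronal genes it was 5.13%. For the 11 pharynx genes with at least 10 RPKM in L1 larvae it was 12.7%, from 3.06% to 76%. The cuticle genes behaved otherwise. Of the 13 collagens 3 were higher in L1 larvae than in embryo culture A, and none of the 5 matrix genes was. Of all 724 genes higher in A, 508 (70.2%) were higher in L1 larvae than in embryo culture A. The numbers were 70 of the 120 genes higher in B (58.3%) and 3586 of all 9484 (37.8%). The level in embryo culture A entered both the calls and this comparison, so the shares cannot be read against each other. The share of hatched larvae in either culture was not measured, and its part in these differences was not tested.

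**Figure D4:**
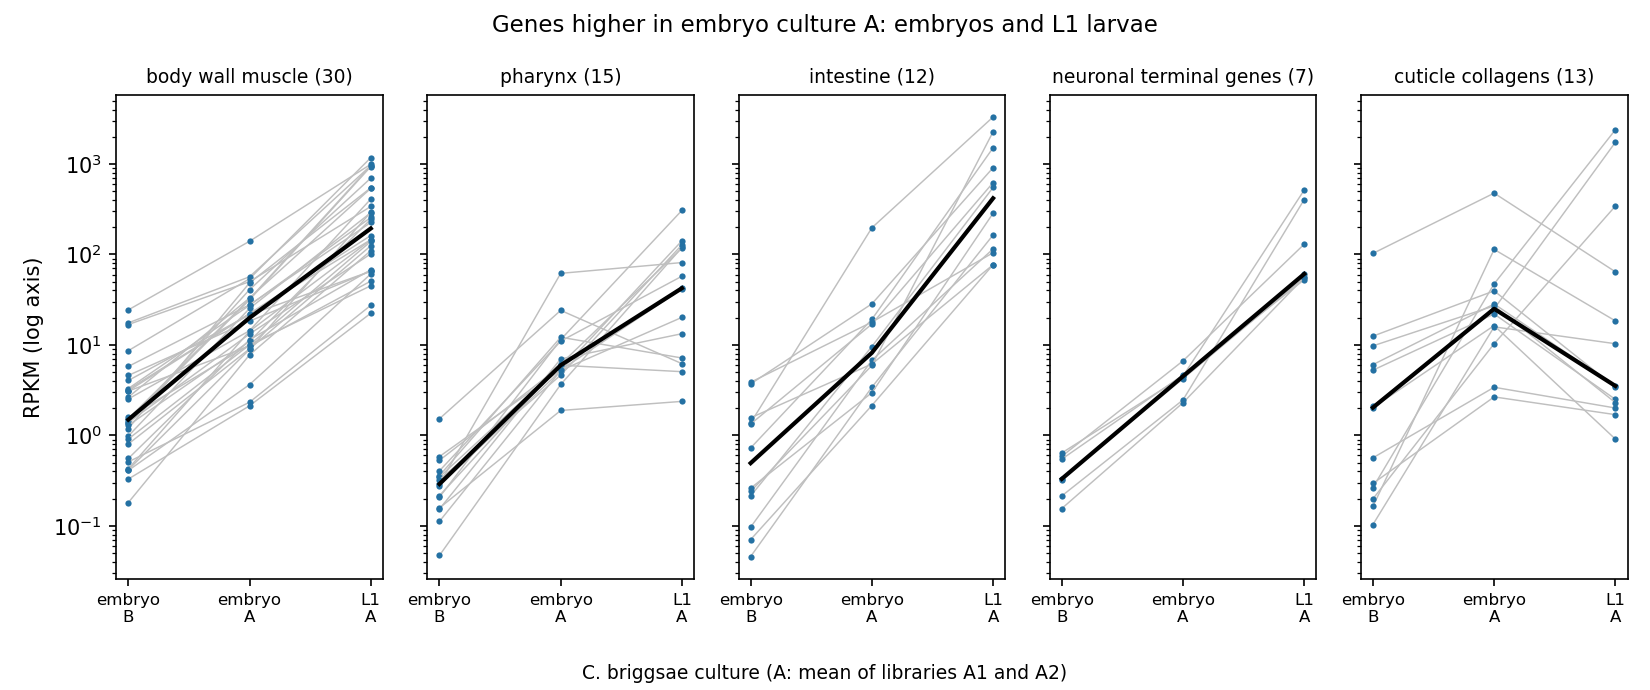
RPKM on a log axis in embryo culture B, embryo culture A (mean of A1 and A2) and L1 larvae of culture A for list members at least 2-fold higher in embryo culture A; grey lines are genes and the black line is the median of the list. Muscle, pharynx, intestine and neuronal medians climb again from embryo culture A to L1 larvae (muscle from 19.9 to 194 RPKM), whereas the collagen median falls from 25 to 3.52 RPKM.

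Stage classes defined in C. elegans libraries, which share no library with the comparison, gave a further description. Of 246 genes at least 8-fold higher in C. elegans L1 larvae than in embryos, 46 (18.7%) were higher in embryo culture A and 5 (2.03%) in B. Their median difference was 0.24, or -0.02 after quantile normalization, so the counted genes and not the class as a whole lay towards A. As in the gene lists, members under 1 RPKM in B entered the comparison only through their level in culture A. The share of this class higher in A therefore depends in part on the filter. Of 167 genes restricted to C. elegans embryos at 8-fold over every later stage, 25 (15%) were higher in A and 14 (8.38%) in B, with a median of -0.28. Embryo-restricted genes thus went both ways. Those higher in A included col-165, col-74, cut-3, the heterochronic gene hbl-1 (33.3 RPKM in A1, 24.1 in A2 and 3.82 in B; 2.61) and the chitinase gene cht-5 (6.68, 4.57 and 0.415 RPKM; 2.21). Those higher in B included zip-7, ins-2, skr-21, sto-1, ttr-50, cutl-2 and the C-type lectin gene clec-196 (28.3, 40.6 and 88.5 RPKM; -1.36). hbl-1, cht-5 and clec-196 were chosen after their values were seen. Of 116 genes shared by C. elegans embryos and adults, and low in L1 larvae, 2 (1.72%) were counted on each side. Their median difference was close to 0.

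The libraries of culture A differed from each other in a few genes that bear on these counts. Among the 724 genes higher in A, A1 was above A2 in 400, against 4011 of all 9484. F42A9.6 had 7.21 RPKM in A1, 154.65 in A2 and 174 in B, and laat-1 had 69.97, 13.6 and 91.5, so each was apart from B in 1 library of A and not counted. With A2 alone against B the counts were 996 and 289 genes, and with A1 alone 976 and 288. Each single-library count was drawn with its own filter, and by construction it holds nearly all genes counted in both. Culture, time course, isolation and the mix of embryo ages cannot be told apart with 1 culture on each side.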

How the data were processed

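Poly(A)+ RNA libraries of C. briggsae embryos were compared from the deposited table of RPKM values, which the authors computed per gene ID. Per the submitters' processing notes the aligner was BWA 0.5.7. How reads were counted, on which build and annotation, and how orthologs were paired is not given in the sources used here, and no coordinates are printed. Values were used as deposited, with a pseudocount of 1 RPKM, a mean over the cultures of at least 1 RPKM and a limit of 2-fold in both libraries of culture A. Libraries A1 and A2 were averaged as 1 culture. Symbols came from RefSeq by locus tag, for 13518 of 13813 IDs. Members and the 21 gene lists were chosen with earlier results of these data known. The genes named were the 12 with the largest smaller difference per direction at 10 RPKM or more, the 6 with the largest RPKM difference per direction, the 4 furthest apart in each list, and members of lists whose role orders the account. Stage classes used C. elegans libraries without embryo library A1, whose composition stands apart from A2. L1 percentages used genes with at least 10 RPKM in L1 larvae. Near copies are genes within 0.1 log2 of each other in every C. briggsae library. Pseudocounts, filters, scalings and single libraries were varied. The calling script was tested on simulated data. Depth is unknown, so no counting interval is given. Python 3.11.15, numpy 2.4.6, pandas 2.3.3, scipy 1.17.1 and matplotlib 3.10.9 were used.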

Additional observations from a re-analysis of the deposited data

Results flagged for a closer look

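The sign of the A minus B median of muscle genes in C. briggsae embryos was opposite to that in 2 other culture pairs, and that of pharynx genes to the C. elegans embryo pair. In C. briggsae embryos the body wall muscle median of A minus B was 2.2 on the log2 scale for A1 and 1.83 for A2. The same genes in C. elegans embryos had a mean of the library medians of -0.18 (-0.26 and -0.11), and in C. briggsae L1 larvae of -0.042 (-0.04 and -0.05). The pharynx median was 2.39 and 1.90 in C. briggsae embryos and -0.34 in C. elegans embryos (-0.58 and -0.11). In C. briggsae L1 larvae the pharynx median was 0.45 and 0.26, the same sign as in the embryos. The muscle values in the other pairs were small, and the difference between the pairs was not tested. The C. elegans means include embryo library A1, whose composition stands apart from A2.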

How the results depend on the processing

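No gene counted as reported changed sign after quantile normalization or median-ratio scaling. This is a weak check, since such genes were at least 2-fold apart to begin with. Of 21 list medians, 8 changed sign under at least 1 setting, and none of these was further from 0 than 0.129 as reported; the ciliary median ran from -0.40 to 0.34. Genes higher in culture A numbered 724 as reported, 210 with a pseudocount of 5 and 200 with a filter of at least 5 RPKM, where culture A held 68.3% of counted genes. Genes higher in B numbered 43 with a pseudocount of 5 and 195 after quantile normalization. With 1 library of A left out they numbered 288 to 289, and those higher in A 976 to 996; these counts ask for 1 library where the reported ones ask for both. Of the genes counted as reported, 480 of the 724 higher in A were still counted after quantile normalization, and 723 of them and 108 of the 120 higher in B after median-ratio scaling. Genes apart between A1 and A2 numbered 749 with a pseudocount of 0.5, 64 with a pseudocount of 5 and 117 with a filter of at least 5 RPKM. A larger pseudocount and a higher filter lower the counts by construction, since most genes higher in A are low in B. Over all settings the count higher in A ran from 24 to 32 for muscle, 10 to 17 for cuticle collagens, 5 to 19 for pharynx, 5 to 14 for intestine, 0 to 11 for mature neurons, 1 to 5 for junctions and 1 to 5 for excretory, glial and coelomocyte genes. Of the other values, 176 of 678 for named genes and 41 of 147 list medians moved by more than the spread between A1 and A2. No paired analysis was possible because each side has 1 culture. RPKM without counts leaves the error of genes under 1 RPKM unknown.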

Other observations

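Grouping all genes by the stem of their symbol, with at least 8 genes compared, gave 138 families, and those named here were chosen after their values were seen. Several families had a larger share higher in culture A than the 7.63% of all genes. As in the gene lists, members under 1 RPKM in B entered the comparison only through their level in culture A. These shares therefore depend in part on the filter, and they were not counted again under other settings. Of 53 col genes, 26 were higher in A and 1 in B. Also higher in A were 6 of 10 bus genes, 5 of 8 abu genes and 7 of 12 grl genes, a hedgehog-related group with secreted proteins. Of 12 cuticlin-like cutl genes, in contrast, 1 was higher in A and 1 in B, with a family median of -0.06. grl-16 had 32.5 RPKM in A1, 30.03 in A2 and 0.335 in B. The hedgehog-related wrt-1 (18.5, 20.1 and 0.379 RPKM) and wrt-2 (19.6, 13.8 and 0.592 RPKM) lay with it, as did 7 of 15 patched-related ptr genes. Of 25 transthyretin-related ttr genes 11 were higher in A and 1, ttr-50, in B. The secreted nspg genes had 5 of 9 higher in A.

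A few families had several genes higher in B, against 1.27% of all genes. Of 22 gst genes, the glutathione S-transferases, 4 were higher in B and none in A, with gst-41 at 12.7 RPKM in A1, 18.1 in A2 and 37.5 in B. Of 10 skr genes 2 were higher in B, and of 10 fbxc genes, an F-box family, 2 were. Of 18 histone his genes 2 were higher in B, with a family median of -0.67. Reads are a further limit for the his and gst genes. Genes within each of these 2 families may be alike in sequence, so the split of reads among them is uncertain. No gene higher in B had a near copy, meaning another gene within 0.1 log2 of it in every C. briggsae library. That check covered only genes that reached at least 10 RPKM in a C. briggsae library.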
